A study of Canis lupus familiaris with 39 samples.

Results

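The spleen was set against 9 other organs of normal dogs on Affymetrix canine arrays, which measure the labelled RNA that binds to groups of short probes called probesets. The 4 arrays labelled as normal spleen were used, 4 of 39 arrays in all. The other 35 came from brain (cerebrum), heart, jejunum, kidney, liver, lung, lymph node (peripheral), pancreas and skeletal muscle, with 3 arrays of pancreas and 4 of each other organ. The dogs were beagles and mixed-breed animals of both sexes, from puppies of a few months to adults, their organs were judged normal by pathology, and the labels give no treatment in any group. Pieces of organs and not sorted cells were measured, so a spleen value is a mixture over blood, lymphoid tissue, capsule and vessels. In the labels the arrays of an organ are numbered, with no number tied to a dog. By the study's methods each dog gave all the organs, so arrays of different organs are not independent of each other, and p-values measure only the spread between these arrays.

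The spleen filters blood and holds lymphoid tissue in 1 organ. In the red pulp, blood flows out of open-ended vessels, passes macrophages that take up old red cells and recycle their iron, and returns through sinuses lined by endothelium. The white pulp is made of B cell follicles and T cell sheaths around the arteries. A capsule and trabeculae, rich in smooth muscle in the dog, hold the organ together and contract to release stored red cells and platelets.

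For each probeset the spleen mean was compared with the unweighted mean of the 9 other organ means, both as log2 values, and a difference was called at a false discovery rate of 0.001 in limma over all 42860 probesets. The fit used a common estimate of spread per probeset over the 10 organs. A standard error (SE) or p-value can therefore understate the spread between the spleen arrays themselves, as for MS4A1 and KLRD1 below. A gene was represented by its single-symbol probeset with the highest mean over the 39 arrays, which gave 15115 genes. A value of about 4 is the level of most probesets, since array medians in spleen lay between 3.98 and 4.04. Of the genes, 1049 were called higher in spleen (6.94%) and 871 were called lower (5.76%), with a median difference of -0.04 over all genes. In bulk tissue, fewer cells of a type and less RNA per cell cannot be told apart. Among the genes called higher, 766 passed 2-fold, 329 passed 4-fold and 86 passed 10-fold (0.569% of genes), and among those called lower the counts were 542, 103 and 5. By this measure higher genes reached further from the other organs than lower genes did. The measure is not alike in the 2 directions. A gene high in spleen alone keeps its full difference, while a gene high in 1 other organ alone is diluted in the mean of the 9. Over all probesets, 10.2% were called against the mean of the 9 organs, 3.91% against lymph node, 5.17% against lung and 12.5% against liver. A called difference above 10-fold is termed enriched (210 probesets, 0.49%), and an enriched probeset with no other organ above 3-fold over its own 9 others is termed selective (36 probesets, 0.084%). Called probesets were higher in spleen in 52.7%, but in 27.8% when arrays were shifted to an equal median of housekeeping genes, a shift that moved the median difference of all probesets to -0.51, against -0.05 as deposited. The shift lowers every difference by 0.47, so a positive difference under that size changes sign with it. The 4 spleen arrays were not equally close. Array 3 had a Pearson's r of 0.935 to 0.953 with the other 3 across probesets, and an array weight of 0.29 against 1.28 to 1.90 for the others in a weighted fit, so values of array 3 are given throughout.

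Genes taken as markers of spleen and of neighbouring tissue were looked at first, which is no independent check of the label. COCH, a secreted matrix protein named for its place in the cochlea, was at 11.93, 12.09, 10.66 and 11.77 in the spleen arrays, against a lowest, median and highest value of 3.27, 3.54 and 5.24 on the other 35 arrays. CCL14, a chemokine of vein and sinus endothelium in humans, was at 10.05, 10.61, 10.92 and 10.62 in spleen, against 5.44, 6.14 and 8.16 elsewhere. All 4 spleen arrays lay above every other array for both genes, with array 3 the lowest spleen array for COCH and array 1 for CCL14. The difference was 7.96 for COCH (SE 0.19, adjusted p = 7.09e-25) and 4.16 for CCL14 (SE 0.24, adjusted p = 6.73e-15). Of the markers of neighbouring tissue, the pancreatic enzymes CPB1, CLPS and PLA2G1B averaged 3.66 ± 0.32, 4.0 ± 0.27 and 3.53 ± 0.21 in spleen (SD, n = 4). The list of 13 acinar genes had a median of 3.62 to 4.09 on the spleen arrays, against 13.38 in pancreas. Medians were 3.79 to 4.09 for 15 adipocyte genes, 4.0 to 4.15 for 8 mesothelial genes and 4.06 to 4.41 for 17 hepatocyte genes on the spleen arrays, all at about the level of most probesets.

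Among listed genes, those of the red pulp were the most frequent at large differences. Of 86 genes called higher by more than 10-fold, 53 had spleen as the highest organ, and lymph node was the highest of the other organs for 48, liver for 11 and lung for 9. Gene lists by part of the spleen held 35 of the 86 genes. The red pulp lists, which are the largest, held 20 of their 200 measured genes, the white pulp lists 9 of 146 and the stroma lists 4 of 84. Lists of both pulps held 2 of 50 and lists of other tissues 1 of 123. VCAM1 was counted under both the red and the white pulp. In 101 genes (0.668%) all 4 spleen arrays lay above all 35 others, and the 20 of these with the largest difference among called genes were taken for description. The plot of these 20 genes shows the spleen arrays apart from every organ mean. The first was LOC476825, which had 12.41, 12.03, 12.42 and 12.51 in spleen, against 3.17, 3.70 and 8.76 on the other arrays. The files give it no name. In the RefSeq gene table (assembly UU_Cfam_GSD_1.0) it lies 4 genes away from HBE1, an embryonic globin gene. LOC484897, also without a name, was at 9.76, 7.74, 7.78 and 9.60 in spleen, against 3.26, 3.59 and 5.70. Its spleen values fell into a lower and a higher pair, all above the other organs. Genes of the 20 that are in no list included CDC7, a kinase that starts DNA replication (5.07, adjusted p = 6.32e-16), PIP4K2A, a kinase of phosphoinositide lipids (3.9, adjusted p = 1.41e-11) and CXCL16, a chemokine and scavenger receptor (3.91, adjusted p = 2.75e-13).

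**Figure D1:**
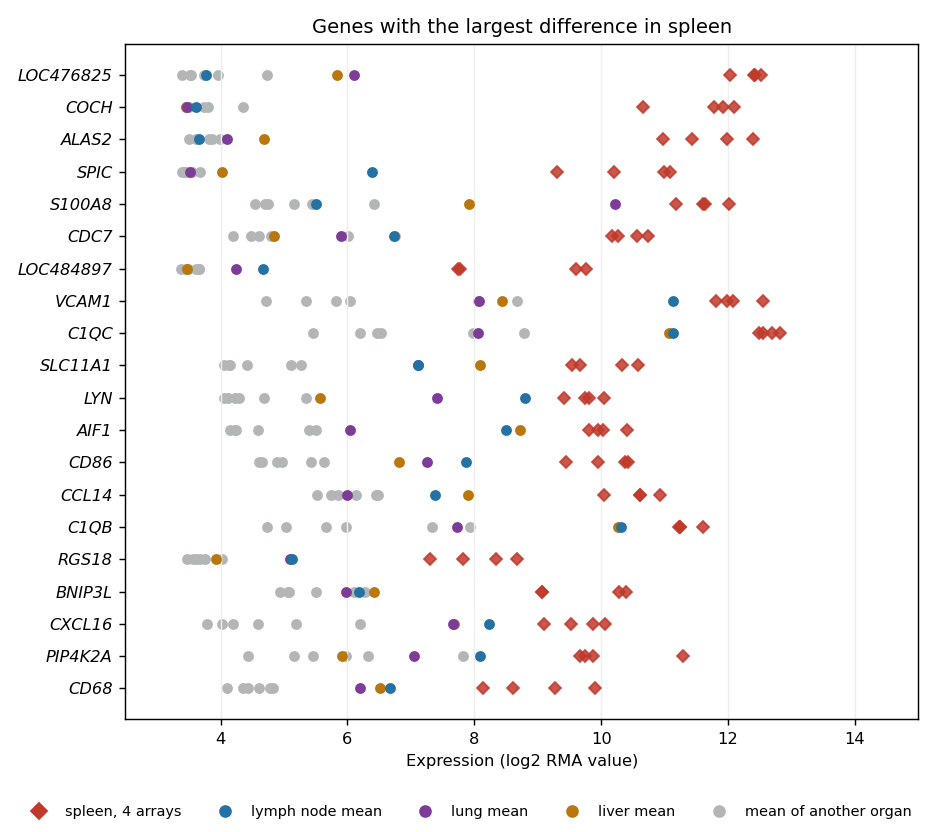
Log2 RMA values (horizontal axis) of the 20 genes with the largest higher difference among those with every spleen array above every other array, with the 4 spleen arrays as diamonds and each other organ's mean as a circle. Every spleen array lies to the right of every organ mean, but for several genes another organ's mean lies within 2 log2 units of the spleen mean. Among them are VCAM1, C1QC, C1QB, LYN and CXCL16 for lymph node, AIF1 for liver and S100A8 for lung.

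The macrophage list had the largest median difference of the 29 lists. Of 29 measured genes of the macrophage list, 21 were called higher in spleen, 0 lower and 8 neither, with a median difference of 2.46. The median of the list was 7.81, 7.52, 7.21 and 8.13 on the 4 spleen arrays, against 4.15, 4.52 and 7.11 as the lowest, median and highest of the other arrays, and the ranges did not overlap. Lymph node (6.29) and liver (6.21) came next. SPIC, the transcription factor that red pulp macrophages need in the mouse, was at 11.09, 10.20, 9.30 and 10.99 in spleen, against 3.26, 3.50 and 7.16 elsewhere. Every spleen array exceeded every other array, and the difference was 6.51 (SE 0.23, 91.4-fold, adjusted p = 3.41e-20). CD5L, a secreted protein of tissue macrophages, was at 12.38, 12.42, 12.37 and 11.66 in spleen, against 3.13, 3.63 and 11.88. Its spleen arrays were all high, but lymph node averaged 10.59 ± 1.29 and liver 10.55 ± 0.52 (SD, n = 4), with the highest lymph node array inside the spleen range, and the difference was 6.90 (SE 0.37, adjusted p = 2.45e-15).

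Adhesion and clearance genes of the same cells followed. VCAM1, which binds blood cells in the red pulp and is also a stromal marker, was at 12.08, 11.81, 12.55 and 11.98 in spleen, against 3.93, 8.0 and 11.40. C1QC and C1QB, chains of the complement component that tags debris, had differences of 4.67 (adjusted p = 2.38e-11) and 4.11 (adjusted p = 5.82e-11). CD163, the scavenger receptor for haemoglobin bound to haptoglobin, was at 9.64, 8.95, 9.37 and 10.09 in spleen, against 3.12, 4.61 and 9.25, a difference of 4.18 (adjusted p = 1.53e-09). Array 2 was lowest and array 4 highest for CD163. Against lymph node alone, 7 of the 29 were called higher and 0 lower, where 2.79% of all genes were called higher. In a fit of the spleen and lymph node arrays alone, which called 75 probesets against 1677 in the fit of all organs, 0 macrophage genes were called and SPIC (adjusted p = 0.0105) and CD163 (adjusted p = 0.0436) did not pass. In the fit of all organs SPIC differed from lymph node by 4.0 (SE 0.30, adjusted p = 2.51e-11) and CD163 by 3.52 (SE 0.55, adjusted p = 2.29e-05), whereas VCAM1 differed by 0.98 (adjusted p = 0.430) and C1QC by 1.5 (adjusted p = 0.0545). Members at the low end were the phagocytosis receptor AXL (-0.18, adjusted p = 0.132) and ADGRE1 (0.13, adjusted p = 0.541), which encodes the F4/80 antigen of mouse macrophages. Their spleen means of 4.31 ± 0.07 and 4.10 ± 0.36 (SD, n = 4) were near the level of most probesets. Other myeloid genes among the top 20 were the calcium-binding AIF1 (4.34, adjusted p = 3.24e-13), the lysosomal protein CD68 (3.81, adjusted p = 3.64e-12) and the kinase LYN (4.36, adjusted p = 1.76e-16), which acts downstream of B cell and Fc receptors.

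Genes of iron handling were split, with metal pumps and biliverdin reductases among those called higher. Of 22 measured genes of iron and heme recycling, 7 were called higher and 2 lower, with a median difference of 0.26. The list median averaged 5.69 in spleen, below liver (8.15) and lung (6.18). Against liver, 0 of the 22 were called higher and 6 lower, where 8.18% and 7.18% of all genes were. SLC11A1, which pumps metal ions out of the phagosome, was at 9.67, 10.32, 10.57 and 9.54, against 3.74, 4.85 and 8.90 elsewhere. SLC40A1 (ferroportin), the exporter of iron from the cell, was at 11.14, 10.75, 10.31 and 11.53 in spleen, against 4.48, 8.12 and 10.52. Spleen arrays were high for both, with the ferroportin range overlapping that of other organs, and the differences were 4.53 (SE 0.39, adjusted p = 1.08e-10) and 3.13 (SE 0.37, adjusted p = 7.27e-08). The biliverdin reductase BLVRA, which turns the product of heme breakdown into bilirubin, differed by 1.45 (adjusted p = 5.52e-06). BLVRB, a gene of the same name, differed by 3.84 (adjusted p = 7.46e-14), though the median over all BLVRB probesets gave 0.03 and no call. FTH1, the heavy chain of the iron store ferritin, was at 5.32, 5.56, 6.03 and 5.46, against 4.51, 6.54 and 8.74, and was called lower by 1.20 (adjusted p = 5.72e-06). The liver and blood proteins HPX, which binds free heme, and HAMP, the hormone hepcidin, gave differences of -1.08 (adjusted p = 4.74e-04) and -0.59 (adjusted p = 0.159). Ceruloplasmin, CP, which oxidises iron as it leaves the cell, differed by 2.36 (adjusted p = 0.00344) and did not pass, but another of its probesets was called higher by 2.24.

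Red cell genes followed. In the erythroid list, 12 of 38 measured genes were called higher, 2 lower and 24 neither, so the median difference was only 0.12. The list median was 4.55, 4.53, 4.58 and 4.68 on the spleen arrays, against 3.93, 4.08 and 4.39 elsewhere, which did not overlap. ALAS2, the first enzyme of heme synthesis in red cell precursors, was at 10.97, 11.43, 11.98 and 12.39, against 3.26, 3.74 and 6.64. This was the third largest of the 20, with a difference of 7.82 (SE 0.28, 226-fold, adjusted p = 5.39e-20). EPB41, a protein of the membrane skeleton, differed by 3.31 (adjusted p = 2.40e-09), BPGM, which makes the regulator of oxygen release, by 3.17 (adjusted p = 2.33e-11) and HEMGN, a nuclear protein of erythroid cells, by 3.14 (adjusted p = 3.28e-13). BNIP3L, which clears mitochondria from maturing red cells, is in no list and was named as a member of the 20. It was at 9.07, 9.07, 10.28 and 10.39 in spleen, against 4.10, 5.84 and 7.0, and differed by 3.98 (adjusted p = 3.28e-13). The glucose transporter SLC2A1 and the liver and red cell pyruvate kinase PKLR were called lower, by 1.04 (adjusted p = 4.06e-05) and 0.76 (adjusted p = 5.08e-04), and the membrane anchor ANK1 was at 4.30 ± 0.60 (SD, n = 4) and did not pass (-0.73, adjusted p = 0.0345). Against lymph node, 11 members were called higher and 2 lower, the blood group gene KEL (-1.57, adjusted p = 4.84e-06) and the glycine carrier SLC25A38 (-1.36, adjusted p = 5.43e-05), both named after their values were seen. In the fit of these 2 organs alone, 1 member was called higher and 0 lower.

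Platelet, granulocyte, killer cell and plasma cell genes were further red pulp lists. Of 26 measured megakaryocyte and platelet genes, 13 were called higher and 0 lower, with a median difference of 0.78. RGS18, a brake on platelet receptor signals, was at 8.34, 7.82, 7.31 and 8.67 in spleen, against 3.26, 3.74 and 5.78, with all spleen arrays above the others and a difference of 4.01 (SE 0.22, adjusted p = 2.57e-15). FERMT3, which activates integrins of blood cells, differed by 3.66 (adjusted p = 6.70e-16), PTGS1, the platelet cyclooxygenase, by 2.96 (adjusted p = 5.82e-11) and the platelet ADP receptor P2RY12 by 2.58 (adjusted p = 3.62e-07). The endothelial and platelet protein VWF was at 6.02, 6.34, 5.71 and 6.74, against 4.43, 7.81 and 10.02, and did not pass (-1.29, adjusted p = 0.0116). For PPBP, a chemokine of platelet granules, the probeset that stands for the gene averaged 5.83 in spleen and was not called (0.47), while another averaged 10.81 in spleen and 4.13 in the mean of the other organs, a 103-fold difference (adjusted p = 1.72e-13). PPBP was named because its probesets disagreed.

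Of 28 measured granulocyte genes, 13 were called higher and 1 lower, with a median of 0.53. S100A8 and S100A9 form the calcium-binding protein calprotectin of neutrophils and monocytes. S100A8 was at 11.61, 11.17, 12.01 and 11.63 in spleen, against 4.08, 5.55 and 11.12, and S100A9 was at 10.26, 10.26, 11.19 and 10.23, against 3.96, 4.42 and 10.38. The highest other values were in lung, which reached a mean of 10.21 ± 0.75 for S100A8 and 9.30 ± 0.74 for S100A9 (SD, n = 4). The differences were 5.54 (SE 0.38, adjusted p = 7.45e-13) and 5.24 (SE 0.25, adjusted p = 8.76e-17). The decoy receptor IL1R2, the oxidase subunit CYBB and lysozyme (LYZ) differed by 3.56 (adjusted p = 2.57e-15), 3.12 (adjusted p = 8.17e-10) and 2.96 (adjusted p = 8.76e-06). At the other end, the cytokine gene IL1B and the neutrophil surface antigen CD177 averaged 3.72 ± 0.03 and 3.44 ± 0.04 (SD, n = 4) and did not pass, and ALPL, an alkaline phosphatase also of liver, bone and kidney, was called lower by 1.24 (adjusted p = 8.21e-06). In the list of natural killer and cytotoxic genes, 10 of 26 were called higher and 0 lower, which fell to 6 without spleen array 1 or without spleen array 2. The receptor KLRD1 was at 9.18, 9.0, 5.78 and 9.94 in spleen, against 3.0, 3.48 and 7.90. Its array 3 lay within the range of the other organs, while the other 3 spleen arrays lay above all of them, and the difference was 4.53 (SE 0.44, adjusted p = 1.04e-09). The adaptors TYROBP and FCER1G, which myeloid cells also use, differed by 3.11 (adjusted p = 8.27e-12) and 2.06 (adjusted p = 1.11e-08). Perforin, PRF1, was at 3.78 ± 0.06 (SD, n = 4) and did not pass (adjusted p = 0.953). Among 15 plasma cell genes, 4 were called higher (CD38, SLAMF7, SEC11C and JCHAIN), led by JCHAIN, the joining chain of secreted IgA and IgM, at 12.11, 10.96, 11.77 and 12.50 in spleen, against 4.64, 6.64 and 12.47 (4.04, adjusted p = 1.42e-08, with 0.85 and no call for the median over its probesets). Lymph node and jejunum reached means of 11.60 ± 0.60 and 11.26 ± 0.85 for JCHAIN, and spleen and lymph node differed by 0.24 (adjusted p = 0.930).

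The endothelium of the sinuses was less uniform. Of 19 measured genes, 9 were called higher and 0 lower, with a median difference of 0.84. After CCL14 came DNASE1L3, a secreted nuclease, at 10.59, 10.24, 9.24 and 9.27 in spleen, against 5.36, 6.47 and 11.48 (2.61, adjusted p = 1.15e-11). LYVE1, a hyaluronan receptor of sinus and lymphatic endothelium, was at 7.19, 7.01, 3.80 and 6.70, against 3.12, 3.40 and 8.82, which spanned the spleen values, with array 3 the lowest of the 4 (2.09, adjusted p = 2.35e-05). The angiopoietin receptor TEK differed by 1.81 (adjusted p = 1.34e-04), and by 2.69 from lymph node (adjusted p = 8.37e-05). The mannose receptor MRC1, the stem cell and vessel antigen CD34 and the lectin CLEC4G, a gene of liver and lymph node sinuses, gave -1.09 (adjusted p = 0.0794), -0.49 (adjusted p = 0.116) and -0.42 (adjusted p = 0.214). CLEC4G was called lower than in lymph node, by 1.85 (adjusted p = 9.53e-05).

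In the white pulp lists, B cell genes were above the average organ but not above lymph node. Of 32 measured B cell genes, 15 were called higher and 0 lower, with a median difference of 0.54. MS4A1 (CD20), a surface marker of mature B cells, was at 9.77, 8.76, 4.93 and 7.06 in spleen, against 3.49, 3.80 and 10.37, a difference of 3.16 (SE 0.37, adjusted p = 3.94e-08). Array 3 was the lowest for MS4A1 and the range overlapped that of lymph node, which averaged 9.67 ± 0.52 (SD, n = 4). The tetraspanin CD37 differed by 3.86 (adjusted p = 3.34e-12), and the B cell receptor kinases BTK and SYK by 3.53 (adjusted p = 6.36e-12) and 3.43 (adjusted p = 1.04e-13), though both kinases act in myeloid cells as well. The B cell transcription factor PAX5 was at 4.69 ± 0.24 (SD, n = 4), and the low-affinity IgE receptor FCER2 at 3.58 ± 0.14, and neither passed (adjusted p = 0.201 and 0.123). Lymph node was the highest other organ for all 15 genes called higher. Against lymph node, 0 of 32 were called higher and 7 lower, with a median of -0.43, but the count of lower genes was 1 without spleen array 3, 2 without spleen array 4, 4 without lymph node array 2, 3 or 4 and 0 in the fit of these 2 organs alone. The B cell list median was 5.21, 5.21, 4.94 and 4.73 on the spleen arrays, against 5.85 in lymph node.

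T cell genes were mostly lower than in lymph node. Against the mean of the 9 organs, 11 of 40 measured T cell genes were called higher and 0 lower, with a median of 0.18. The list median was 4.5, 4.48, 4.29 and 4.70 on the spleen arrays, against 5.97 in lymph node and 4.19 in jejunum. Against lymph node, 22 members were called lower and 1 higher, with a median of -1.44, where 2.08% of all genes were called lower and the median of all genes was -0.03. CCR7, which guides naive T cells and dendritic cells, was at 3.91, 4.07, 4.01 and 3.75 in spleen and 6.41 ± 1.02 in lymph node (SD, n = 4), a difference of -2.48 (SE 0.27, adjusted p = 5.36e-08). CD28, the co-receptor for activation, was lower by 2.45 (adjusted p = 2.11e-07), CTLA4, its inhibitor, by 2.13 (adjusted p = 5.89e-08) and RASGRP1, a signal protein below the receptor, by 2.44 (adjusted p = 1.05e-05). The co-receptor chain CD8B was lower by 2.69 (adjusted p = 5.80e-06), and CD247, the zeta chain of the receptor complex, by 2.07 (adjusted p = 1.20e-06). The adhesion receptor CD2 was at 10.19, 9.37, 7.51 and 10.15 in spleen and 9.89 ± 0.27 in lymph node, a difference of -0.58 (adjusted p = 0.692), and CD3E was at 8.16, 8.24, 4.38 and 8.09 and 9.20 ± 0.66, a difference of -1.99 (adjusted p = 0.0136). MAL, named for T cells and also a gene of kidney tubules and myelin, was the only member higher than in lymph node, by 4.0 (adjusted p = 6.18e-06), with 9.77 ± 0.28 in kidney. When only the spleen and lymph node arrays were fitted, 0 T cell genes were called lower.

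**Figure D2:**
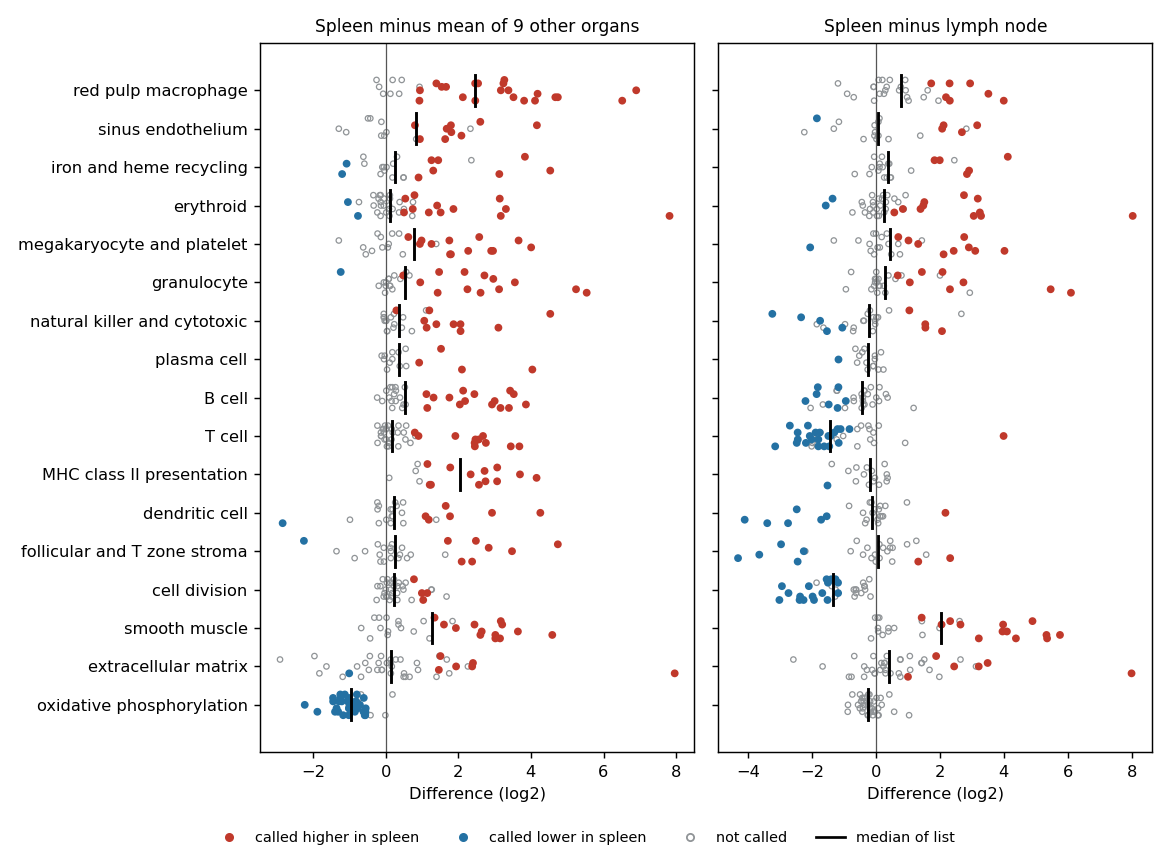
Difference in log2 value of each list member, spleen minus the mean of the 9 other organs (left) and spleen minus lymph node (right), with filled points for genes called at a false discovery rate of 0.001 and a bar at the list median. The list medians of macrophage and smooth muscle genes lie to the right of 0 in both panels (2.46 and 1.28 against the 9 organs), while those of T cell and cell division genes lie to the left of 0 against lymph node (-1.44 and -1.33).

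Genes of antigen display were high in both lymphoid organs. Of 16 measured genes of MHC class II presentation, 12 were called higher and 0 lower, with a median of 2.06, and 0 were called higher and 1 lower than in lymph node (DLA-DOB, -1.52, named after its value was seen). DLA-DQA1 and DLA-DQB1, the chains of the canine DQ molecule, differed by 4.16 (adjusted p = 3.79e-09) and 3.70 (adjusted p = 8.12e-10) from the mean of the 9 organs. CD74, the invariant chain, was at 12.07, 11.97, 10.95 and 11.86 in spleen, against 4.46, 9.20 and 12.68, a difference of 3.07 (adjusted p = 2.45e-06), with the spleen values inside the range of the other arrays. The class II activator CIITA was at 5.51 ± 0.45 (SD, n = 4) and did not pass (adjusted p = 0.581). Of the other genes of immune niches, CD86, the ligand of CD28 on antigen-presenting cells, was at 10.38, 9.96, 10.42 and 9.45 in spleen, against 4.35, 5.34 and 8.65, and differed by 4.26 from the 9 organs (adjusted p = 1.64e-15) and by 2.18 from lymph node (adjusted p = 3.84e-06). Of 24 dendritic cell genes, 6 were called higher and 1 lower, and 6 were lower than in lymph node, a count of 3 when lymph node array 2, lymph node array 4 or spleen array 4 was left out. Lower than in lymph node were IDO1, which degrades tryptophan (-4.10, adjusted p = 2.20e-10), and the peptidase DPP4 (-2.75, adjusted p = 4.72e-04). In the lists of marginal zone and germinal centre genes, 2 of 12 and 2 of 16 were called higher. MARCO, a scavenger receptor of marginal zone macrophages in the mouse, was at 9.76, 9.65, 8.41 and 8.22 in spleen, against 3.92, 4.44 and 11.58 (3.24, adjusted p = 1.31e-08), and lymph node averaged 10.19 ± 1.66. The lymphocyte scaffold PLEKHO1 and the factor LMO2, of germinal centre B cells and of red cell precursors, differed by 1.90 (adjusted p = 2.27e-06) and 1.87 (adjusted p = 1.29e-06), and the median over all PLEKHO1 probesets gave 0.08 and no call.

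Stromal genes of follicles and T zones were also split. Of 26 measured, 7 were called higher and 1 lower. The homing chemokine CXCL12, the alarmin IL33 and the complement protein C7 differed by 2.84 (adjusted p = 1.30e-09), 2.48 (adjusted p = 2.14e-05) and 2.38 (adjusted p = 4.89e-05). LTB, a lymphotoxin that lymphocytes use to organise stroma, differed by 3.48 from the 9 organs (adjusted p = 8.90e-14) and by -2.26 from lymph node (adjusted p = 1.26e-06). The podoplanin gene PDPN, a marker of T zone stroma and of lung alveoli, was at 3.45, 3.64, 3.9 and 3.47, against 3.59, 5.37 and 10.14, and was called lower by 2.25 (adjusted p = 1.78e-05). TNFSF11 (RANKL) was lower than in lymph node by 2.97 (adjusted p = 3.42e-22). Cell division genes were another group in which spleen stood below lymph node. Of 34 measured, 17 were called lower than in lymph node and 0 higher, with a median of -1.33, and 0 were called lower in the fit of these 2 organs alone. PLK1, a mitotic kinase, was lower by 1.98 (adjusted p = 1.38e-06) and TK1, a thymidine kinase of dividing cells, by 2.39 (adjusted p = 1.33e-04). Against the 9 organs 4 members were called higher. These were BIRC5 (1.15, adjusted p = 5.89e-04) and AURKB (1.03, adjusted p = 5.37e-04), both of the complex that aligns chromosomes, and the replication genes MCM7 (1.0) and MCM3 (0.78), named after their values were seen. The count was 0 without spleen array 2 and 2 without spleen array 4. The division list median was 4.44, 5.36, 4.19 and 4.21 on the 4 spleen arrays, and array 2 was the highest in 30 of 34 genes.

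Smooth muscle genes, listed for the capsule and trabeculae though vessels were in the same pieces, had a list median that averaged 7.24 in spleen. It was 8.55 in jejunum, 7.16 in lung and 6.98 in heart. Of 28 measured, 13 were called higher and 0 lower than the mean of the 9, with a median of 1.28, and 13 were called higher than in lymph node, with a median of 2.02, of which the fit of these 2 organs alone counted 4. MYH11, the myosin heavy chain of smooth muscle, was at 11.99, 11.34, 12.22 and 12.36 in spleen, against 3.99, 6.50 and 13.35. Jejunum (12.37 ± 0.82) and lung (11.16 ± 0.83) were the next organs, and the jejunum range covered part of the spleen range (SD, n = 4). The difference was 4.59 from the 9 organs (SE 0.52, adjusted p = 2.54e-08) and 5.76 from lymph node (SE 0.69, adjusted p = 2.91e-07). ACTA2, the smooth muscle actin, was at 12.19, 11.82, 12.62 and 12.46 in spleen, against 3.89, 9.57 and 12.21 (3.15, adjusted p = 2.21e-05). The kinase MYLK, which starts contraction, differed by 3.64 (adjusted p = 9.29e-10), the actin-binding TAGLN by 3.21 (adjusted p = 9.70e-09) and tropomyosin TPM2 by 3.17 (adjusted p = 3.30e-09). Jejunum or lung was the highest other organ for 11 of the 13 called genes. SYNM and HSPB6, proteins of muscle filaments that striated muscle shares, gave -0.43 (adjusted p = 0.0185) and -0.67 (adjusted p = 0.245).

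Matrix genes were called higher only in part. COCH was the highest of 40 measured, of which 6 were called higher and 1 lower (VTN, vitronectin, -1.0, named after its value was seen), and the count of higher genes was 3 without spleen array 3 or without spleen array 4. The basement membrane genes COL4A2 and HSPG2 differed by 2.40 (adjusted p = 7.38e-04) and 1.94 (adjusted p = 5.24e-07), and FBLN5, of elastic fibres, by 2.38 (adjusted p = 1.32e-04). The median over all HSPG2 probesets gave 0.16 and no call. LUM, a proteoglycan of fibrous collagen, was at 4.32, 3.86, 5.63 and 7.35, against 3.73, 8.53 and 11.5, and MFAP5, of microfibrils, averaged 3.35 ± 0.06 (SD, n = 4), with differences of -2.91 (adjusted p = 0.00280) and -1.96 (adjusted p = 0.00597) that did not pass. Both were called lower with array weights (adjusted p = 4.37e-05 and 3.46e-04) and with housekeeping scaling (3.45e-06 and 4.09e-05). Of 16 factors that pattern the spleen in embryos, mostly known from the mouse, 6 were called higher and 0 lower. TCF21, needed for the spleen to form in the mouse, was at 7.24, 8.78, 6.54 and 7.55 in spleen, against 3.22, 3.57 and 8.85, and lung averaged 7.98 ± 0.68 (3.41, adjusted p = 3.11e-14). WT1, which the mouse spleen also needs, was at 4.42, 4.61, 4.70 and 5.36, against 3.45, 3.73 and 4.51, a small difference near the level of most probesets (0.99, adjusted p = 5.64e-08). The nuclear receptor NR2F2, of veins, differed by 2.19 (adjusted p = 4.95e-07) and the receptor partner RAMP2, of endothelium, by 2.42 (adjusted p = 1.96e-09).

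A few lists of other tissues held genes that were high in spleen as well. STMN2, a microtubule protein of neurons, was at 10.82, 11.47, 10.63 and 11.16 in spleen, against 3.29, 3.84 and 12.65, and brain averaged 11.96 ± 0.47 while jejunum, the next organ, had 5.88 ± 0.78 (SD, n = 4). VSNL1, a neuronal calcium sensor, was at 8.27, 7.28, 8.10 and 7.58, against 2.99, 3.38 and 12.57. Spleen lay below brain and above most other organs for both, with differences of 5.93 (SE 0.35, adjusted p = 1.53e-14) and 3.11 (SE 0.19, adjusted p = 2.42e-14). The other 19 of 21 neuronal genes had no member called higher and 9 called lower, with SNAP25 at 3.40 ± 0.09 and MAP2 at 3.70 ± 0.17 in spleen. PPARG, a nuclear receptor of fat cells and macrophages, was at 7.46, 6.93, 7.12 and 7.81 in spleen, against 3.73, 4.95 and 6.62, above every other array (2.30, adjusted p = 5.93e-09). The adipocyte genes LEP and PLIN1 were at 3.63 ± 0.06 and 4.10 ± 0.16, near the level of most probesets. SERPINA1, an antiprotease of liver and of myeloid cells, was at 9.33, 8.68, 9.14 and 9.77, against 4.95, 6.02 and 13.08, a difference of 1.99 (adjusted p = 1.23e-04), whereas the liver transport protein TTR averaged 3.87 ± 0.21 in spleen.

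Lists of energy metabolism and of other tissues held the most genes called lower, 42 of 61 and 46 of 123, where 5.76% of all genes were. The lists of other tissues mostly hold genes of another organ in the reference, so lower calls there were largely built in. Against lymph node, 1 of the 123 was called lower and 5 higher. Of 40 measured genes of oxidative phosphorylation, 33 were called lower and 0 higher, with a median of -0.97. The list median was 9.41, 9.51, 8.97 and 9.43 on the spleen arrays, against 8.88, 10.35 and 11.75 on the other arrays. Heart (11.66) and skeletal muscle (11.44) had the highest means, while lymph node (9.49), lung (9.30) and pancreas (9.03) were near spleen. ATP5MC1, a ring subunit of ATP synthase, was at 8.86, 9.38, 8.37 and 8.78 in spleen, against 8.85, 11.08 and 12.99, and was lower by 2.23 (SE 0.16, adjusted p = 1.07e-12). The synthase subunit ATP5F1D and the complex I subunits NDUFA9 and NDUFA8 were lower by 1.88 (adjusted p = 4.06e-06), 1.45 (adjusted p = 8.53e-06) and 1.45 (adjusted p = 3.26e-07). UQCRH, of complex III, was at 12.39 ± 0.44 (SD, n = 4) and did not pass (0.19, adjusted p = 0.295). Heart or skeletal muscle was the highest other organ for 39 of the 40, and 0 were called lower and 0 higher than in lymph node. In the list of fatty acid oxidation, 9 of 21 were lower and 0 higher, with ACADVL and ACADM, dehydrogenases of long and medium chains, lower by 1.65 (adjusted p = 4.50e-08) and 1.31 (adjusted p = 3.91e-07).

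**Figure D3:**
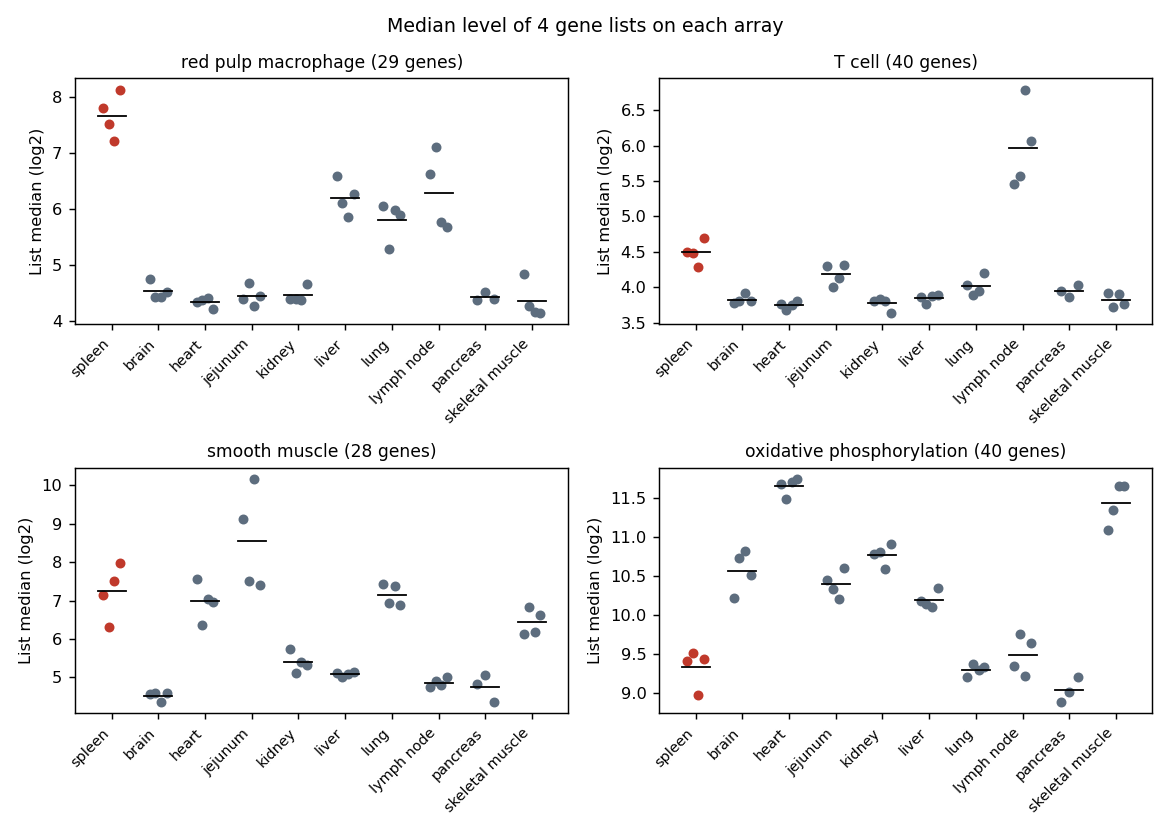
Median log2 value of the genes of 4 lists (vertical axis, a scale of its own in each panel) on each array, by organ, with spleen at the left and a bar at each organ mean. Macrophage genes are highest in spleen (7.21 to 8.13), T cell genes in lymph node, and smooth muscle genes in jejunum, while oxidative phosphorylation genes in spleen lie with those of lung, lymph node and pancreas.

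In 206 of the 871 lower genes spleen was the lowest of the 10 organs. The 10 with the widest gap to the next organ included enzymes of liver, kidney and muscle. BCHE, butyrylcholinesterase, was at 3.54, 3.66, 3.89 and 3.50 in spleen, against 3.95, 6.62 and 12.82. The spleen arrays lay below all others, with kidney next at 4.68 ± 0.62 (SD, n = 4) and pancreas highest at 12.77 ± 0.06 (SD, n = 3), and the difference was -3.49 (SE 0.33, 11.3-fold lower, adjusted p = 5.55e-10). The amino acid enzymes GPT and ASS1, of alanine and of the urea cycle, were lower by 3.10 (adjusted p = 5.72e-08) and 2.25 (adjusted p = 5.64e-06). GPD1, of glycerol metabolism, was at 3.73, 3.48, 3.77 and 3.79, against 3.58, 6.62 and 10.46, and was lower by 2.88 (adjusted p = 8.87e-06). Genes of sterol metabolism followed, and INSIG1, which holds back cholesterol synthesis, and CYP27A1, of bile acid synthesis, were lower by 2.5 (adjusted p = 4.12e-08) and 2.02 (adjusted p = 4.88e-06), and EPHX2, an epoxide hydrolase, by 2.63 (adjusted p = 5.88e-06). The remaining 3 were SCCPDH (-2.06), ISOC2 (-1.53) and LOC609990 (-1.61), with adjusted p of 3.33e-09, 2.85e-06 and 2.93e-06. Of 25 epithelial genes, 11 were lower and 0 higher, led by EPCAM, an adhesion molecule, at 4.29, 3.95, 4.33 and 4.24 in spleen, against 3.23, 8.08 and 12.14 (-2.93, adjusted p = 2.45e-15), and KRT8, a keratin (-2.22, adjusted p = 2.47e-09). Of 25 striated muscle genes, 15 were lower and 0 higher, with the myosin light chain MYL2 lower by 2.42 (adjusted p = 1.26e-07) and the giant spring protein TTN by 2.29 (adjusted p = 8.96e-05). Against lymph node, 0 of the 25 epithelial and 0 of the 25 striated muscle genes were called lower, with medians of 0.03 and 0.05. The striated muscle list median averaged 3.81 in spleen and 3.79 in lymph node, against 11.62 in heart and 11.82 in skeletal muscle. Low values of these lists are thus not particular to spleen.

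Set side by side, the comparisons with single organs differed by part of the spleen. Of 200 measured red pulp genes, 87 were called higher than the mean of the 9 organs, 47 higher than lymph node, 56 higher than lung and 55 higher than liver, with 5, 10, 10 and 13 lower. Over all genes the shares called higher were 2.79% against lymph node, 2.73% against lung and 8.18% against liver, and the shares called lower were 2.08%, 3.99% and 7.18% in the same order. Of 146 white pulp genes, 42 were higher than the mean of the 9, 5 than lymph node, 30 than lung and 46 than liver, with 4, 42, 8 and 7 lower. Of 84 stroma genes, 25 were higher than the mean of the 9, 24 than lymph node, 4 than lung and 27 than liver, with 1, 0, 10 and 3 lower. Spleen was the highest of the 10 organs for 64 red pulp genes and 10 white pulp genes. These comparisons share the 4 spleen arrays, and the lists were chosen with earlier results of these data known. The counts against lymph node are from the fit of all organs. In the fit of these 2 organs alone, 0 macrophage, 1 erythroid and 4 smooth muscle genes were called higher. In that fit 0 T cell genes and 0 B cell genes were called lower.

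The 4 spleens did not look alike, and array 3 was the one that differed most, in lymphocyte genes, in other lists and in genes at large. Of the 11 T cell genes called higher, array 3 was the lowest spleen array for 7, with a median of -1.70 against the mean of the other 3. The same count was 6 of 10 for killer cell genes (median -0.98) and 12 of 15 for B cell genes (median -0.97). Over whole lists the shift was smaller. Array 3 was lowest in 19 and highest in 9 of 40 T cell genes (median -0.29), lowest in 19 and highest in 5 of 32 B cell genes (-0.48), and lowest in 10 and highest in 10 of 26 killer cell genes (0.02). The shares over all 15115 genes were 30.7% lowest and 41.3% highest (0.04). Over all 1049 genes called higher, array 3 was the lowest in 511 (48.7%), with a median of -0.28. CD3E, a signalling chain of the T cell receptor, was at 8.16, 8.24, 4.38 and 8.09 on arrays 1 to 4, and CD3D at 9.47, 9.86, 7.55 and 8.41. The class I gene DLA-64 was at 8.94, 8.41, 5.03 and 8.65. Array 3 was lowest in each, and for CD3E it read near the level of most probesets. Not every T cell gene followed. MAL was at 7.12, 6.79, 8.11 and 8.54, and SKAP1, an adaptor below the receptor, at 7.45, 7.47, 7.78 and 6.87, with array 3 among the higher arrays. Genes outside immune lists were also low on array 3, with the RNA helicase DDX6 at 8.36, 6.90, 4.11 and 7.71 and the splicing factor SRSF3 at 9.18, 8.88, 5.78 and 9.39. Over all 2982 genes with a spleen mean of at least 7, array 3 was the lowest in 1438 (48.2%), with a median of -0.22. Among oxidative phosphorylation genes it was lowest in 30 and highest in 3 of 40 (median -0.43). Among cell division genes it was lowest in 20 and highest in 3 of 34 (-0.55). Granulocyte genes went the other way, with array 3 lowest in 3 and highest in 15 of 28 (0.17). Striated muscle genes, which are near background in spleen, were highest on array 3 in 21 of 25, by a median of 0.31. The part of these general shifts of array 3 in its lymphocyte values was not tested.

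Array 3 also held genes that were low on the other 3 arrays. FOS, EGR1 and NR4A1, immediate-early genes that cells switch on within minutes of a stimulus, were high on array 3 alone. FOS was at 4.74, 4.05, 9.61 and 4.85, EGR1 at 3.83, 3.97, 6.08 and 3.97 and NR4A1 at 5.43, 5.30, 7.66 and 5.41 on arrays 1 to 4. The chemokine CCL4 was at 5.55, 5.43, 7.95 and 5.89, and PLK2, a kinase induced by stress and growth signals, at 5.56, 6.07, 7.93 and 6.0. On the other organs' arrays FOS ran from 3.47 to 10.48, with jejunum highest at 9.63 ± 0.22 (SD, n = 4). Array 2 stood apart in another way, with the highest value in 30 of 34 cell division genes and the lowest in 18 of 28 smooth muscle genes.

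**Figure D4:**
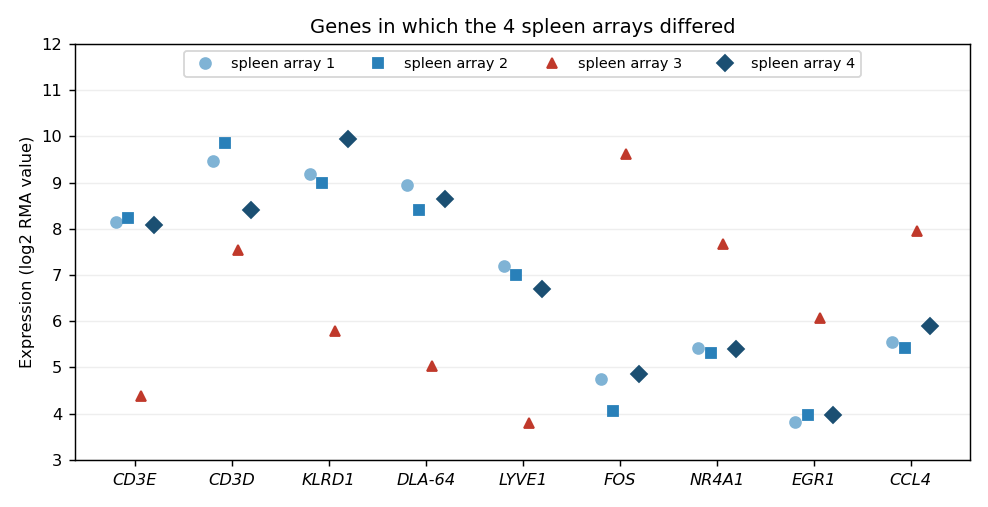
Log2 RMA values (vertical axis) of 9 genes on the 4 spleen arrays, which are told apart by shape and colour. Array 3 is lowest for CD3E, CD3D, KLRD1, DLA-64 and LYVE1 and highest for FOS, NR4A1, EGR1 and CCL4, with a FOS value of 9.61 against 4.05 to 4.85 on the other arrays.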

How the data were processed

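RNA of 10 normal canine organs was measured on Affymetrix canine arrays, 4 per organ and 3 for pancreas. The deposited table holds log2 RMA values. In Partek software, the authors corrected probe signals for their GC content and sequence, subtracted the RMA background, quantile-normalized the arrays together and summarised probes into probesets by median polish. A value is therefore relative to its array, and low signals are compressed. The number of arrays limits the precision.

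Groups were taken from the sample labels. Of 42860 probesets, 29254 carry 1 gene symbol in the array's probe table, 439 several and 13167 none. With limma (version 3.58.1, R version 4.3.3) a mean per organ was fitted over the 39 arrays, and spleen was contrasted with the unweighted mean of the 9 other organ means, and with lymph node, lung and liver. P-values were adjusted by Benjamini and Hochberg over all probesets. The fits were tested on simulated data. Fold changes are 2 to the power of the log2 difference, and a fold above 10 was counted among calls.

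The 29 gene lists held 808 genes, of which 663 were measured. Genes were named by rule: COCH and CCL14, the 20 called genes with the largest higher difference among those with all spleen arrays above all others, the 10 called lower with the widest gap to the lowest other organ mean, the 5 largest and 5 smallest differences of each list, every T cell gene for array 3, and the 8 genes in each direction with the widest gap of array 3 to the nearest other spleen array. Genes named outside this rule are marked where they appear. The members and lists were chosen with earlier results of these data known. Alternatives were other variance models, array weights, scalings, thresholds, references and fits of organ pairs, the replicate number as a block, and leaving out each array. The study's scan date is not in the labels and was not used here. Sequences were not used here. Of coordinates, only the order of genes around LOC476825 was used, since the RefSeq gene table belongs to a later dog assembly. No column of the table was left unmapped.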

Additional observations from a re-analysis of the deposited data

Results flagged for a closer look

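Values on 1 of the 4 spleen arrays stood far from the other 3 in 3 of 29 list medians and 22 of 161 named genes by Dixon's ratio. Some of the named genes were chosen for a wide gap of array 3, among them FOS, EGR1, NR4A1, DLA-64 and SRSF3, so their share is a description. Chance sets an array apart in this way in about 1 in 20 groups. Over all genes 1291 of 15115 (8.54%) passed, with array 3 apart in 933, array 4 in 140, array 1 in 113 and array 2 in 105.

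Of the immune genes, CD3E was at 4.38 on array 3, against 8.09 to 8.24 on the other arrays, CD247 at 3.99, against 5.50 to 5.80, DLA-64 at 5.03, against 8.41 to 8.94, DLA-DQB1 at 9.89, against 11.06 to 11.26, and PLEKHO1 at 6.04, against 7.86 to 8.04. CTLA4 went the other way, at 4.25 on array 3, against 3.55 to 3.65. The sinus gene LYVE1 was at 3.80 on array 3, against 6.70 to 7.19, the splicing factor SRSF3 at 5.78, against 8.88 to 9.39, and CP at 7.70, against 9.06 to 9.33. Immediate-early genes were high on array 3, with FOS at 9.61, against 4.05 to 4.85, EGR1 at 6.08, against 3.83 to 3.97, and NR4A1 at 7.66, against 5.30 to 5.43. Also high on array 3 were S100A9 at 11.19, against 10.23 to 10.26, UQCRH at 13.05, against 12.14 to 12.20, ANK1 at 5.19, against 3.92 to 4.14, and CLEC4G at 4.12, against 3.82 to 3.84. The median of the iron list was 5.89 on array 3, against 5.60 to 5.65, that of the adipocyte list 4.09, against 3.79 to 3.83, and that of the housekeeping list 8.42, against 9.14 to 9.25.

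Other arrays stood apart in single genes. Array 4 was at 11.29 for PIP4K2A, against 9.67 to 9.86, at 11.66 for CD5L, against 12.37 to 12.42, and at 12.41 for TAGLN, against 11.73 to 11.75. Array 1 was at 11.61 for C1QB, against 11.23 to 11.24, at 9.20 for BTK, against 7.78 to 7.83, and at 4.55 for ISOC2, against 5.31 to 5.46.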

How the results depend on the processing

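No called difference of a named gene changed direction under the alternatives run. Without 1 array, the count of called probesets was 3206 (without spleen array 4) to 4754, higher 1716 to 2480, lower 1441 to 2328, enriched 185 to 259 and selective 28 to 48. Against lymph node it was 1183 to 1743, against lung 1764 to 2305 and against liver 4656 to 5615. List counts were 19 to 22 for macrophage, 8 to 12 for erythroid, 12 to 14 for megakaryocyte, 11 to 14 for granulocyte, 14 to 17 for B cell, 9 to 12 for T cell, 15 to 26 for T cell genes lower than in lymph node, 11 to 13 for MHC class II, 13 to 15 for smooth muscle, 12 to 21 for division genes lower than in lymph node and 23 to 34 for oxidative phosphorylation.

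Array weights gave 7049 called, 3759 higher, 3290 lower and 4109 against lung. Scaling to housekeeping genes, which on spleen array 3 stood apart, gave 865 higher, 123 enriched, 737 against lymph node, 1200 against lung and 3319 against liver. List counts were then 5 erythroid and 7 megakaryocyte genes higher, and 9 T cell and 10 division genes lower than in lymph node. Without dim probesets, 7 erythroid genes passed. With the false discovery rate at 0.05 there were 10040 calls (4852 higher, 5188 lower), 4606 against lymph node, 4780 against lung and 10416 against liver. With 10-fold taken over the median organ 331 probesets were enriched, and with each organ set against the 8 remaining ones 17 were selective. Fits of 2 organs alone called 75 probesets against lymph node, 736 against lung and 2569 against liver, with 0 T cell and 0 division genes lower and, of genes higher than in lymph node, 0 macrophage, 1 erythroid and 4 smooth muscle genes; they rest on 8 arrays each.

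Some uncalled differences changed sign. Under array weights PRF1 was -0.01 and CIITA -0.06. Under housekeeping scaling ADGRE1 was -0.34, PRF1 -0.46, FCER2 -0.34, CIITA -0.37 and UQCRH -0.28. With the median over a gene's probesets AXL was 0.06, ANK1 0.05 and JCHAIN -0.80 from lymph node. Without 1 array the ranges were -0.03 to 0.24 for ADGRE1 (spleen 1), and, with the lowest or highest value without spleen array 3, -0.02 to 0.02 for PRF1, -0.10 to 0.24 for CIITA, -0.03 to 0.27 for UQCRH and -0.87 to 0.02 for CD2 from lymph node. The cause was not tested.

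When a gene was given the median over its probesets, 12 of 145 named differences lost their call, among them BLVRB (0.03), PLEKHO1 (0.08), HSPG2 (0.16), MCM3 (0.02), JCHAIN (0.85), SERPINA1 (1.20), SLC2A1 (-1.23) and TTN (-0.81). Under housekeeping scaling 11 lost it, among them BLVRA (0.98), TEK (1.34) and WT1 (0.52). Calls were gained for CP (2.61), SYNM (-0.49), LUM (-3.39) and MFAP5 (-1.92) with array weights, and for VWF (-1.76), LUM (-3.37) and MFAP5 (-2.43) with housekeeping scaling. Of 27 named differences from lymph node, 20 lost their call in the fit of these organs alone, each with its direction kept.

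Some calls were lost when 1 array was left out. HPX and PKLR lost their call without any 1 spleen array (-1.14 to -1.02 and -0.79 to -0.73 over all arrays left out), as did COL4A2 (2.23 to 2.57), which also lost it without heart array 1 or 3 or lung array 1, 3 or 4. TEK lost it without array 2, 3 or 4 (lowest 1.65), FBLN5 without the same 3 (2.17), BIRC5 likewise (0.91), C7 (1.85) without array 2 or 4, SERPINA1 (1.81) without array 1 or 4, AURKB (0.67 and 1.02) without array 2 or 4, MCM3 (0.61 and 0.56) without array 1 or 2 and several arrays of other organs, MCM7 (0.79) without array 2, LYVE1 (1.75) without array 1 and TTN (-2.20) without array 2. From lymph node, DPP4 lost its call without spleen array 3 (-2.48) or 4 (-2.56) or lymph node array 1 (-2.44), 2 (-2.76) or 4 (-2.79), and TK1 without spleen array 3 (-2.24) or lymph node array 2 (-2.22), 3 (-2.13) or 4 (-2.19).

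Each dog gave all the organs, but the labels do not say that a replicate number is a dog. Over all organs, 101 of 171 pairs of the same number correlated above 0.1 in their deviations (median 0.138), against 70 of 513 pairs of other numbers (median -0.0494), a hint of pairing from the data. Since 22 of 35 spleen pairs and not all passed 0.1 (-0.292 to 0.385), the numbers were not used to pair the arrays. With the replicate number as a block 4815 probesets were called (2569 higher, 2246 lower), and CP passed (2.40, adjusted p = 1.42e-04). Spleen array 2 correlated best with its own number in 9 of 9 organs, but arrays 1 and 3 in only 2 of 9 each.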

Other observations

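Outside the lists, 51 genes were called higher by more than 10-fold, and the following were chosen from them after their values were seen. They included receptors of peptide signals. NPY5R, a receptor for neuropeptide Y, was at 6.6, 7.41, 5.79 and 7.81 in spleen, against a lowest, median and highest value of 3.14, 3.25 and 3.99 on the other 35 arrays, a difference of 3.58 (limma, adjusted p = 8.79e-18). NPY1R, another receptor of the same peptide, was at 8.01, 8.69, 5.77 and 8.50 in spleen, against 3.03, 3.39 and 7.15, with array 3 inside the range of the other organs (4.08, adjusted p = 5.41e-12). Outside this set, PENK, which encodes the precursor of the enkephalins, had 3 probesets called higher, by 6.59 (adjusted p = 3.77e-16), 2.74 and 2.37. The first of these was at 11.45, 11.47, 11.52 and 10.42 in spleen, against 2.97, 3.36 and 9.44 elsewhere, above every other array.

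Other genes of the 51 had a higher mean in at least 1 organ that is not lymphoid. NRN1, a surface protein of neurons, was at 9.15, 8.67, 9.36 and 9.73 in spleen, with a brain mean of 9.92 and a median of 3.78 over the other 35 arrays (4.62, adjusted p = 3.43e-21). GDPD2, a glycerophosphodiester phosphodiesterase, was at 9.24, 9.88, 9.52 and 7.38 in spleen, with 12.43 in brain and a median of 3.62 (4.40, adjusted p = 2.00e-17). MIOX, the inositol oxygenase of kidney tubules, was at 8.81, 9.22, 10.18 and 10.39 in spleen, with 10.94 in kidney and a median of 4.48 (4.12, adjusted p = 3.43e-15). ENPEP, an aminopeptidase that cuts angiotensin, was at 10.68, 10.27, 10.69 and 10.56 in spleen, with 11.61 in jejunum and a median of 4.95 (3.95, adjusted p = 1.27e-13).

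The spleens differed from each other in a few strongly expressed genes. ALOX15, a lipoxygenase of macrophages and eosinophils, was at 3.76, 7.57, 8.14 and 9.01 in spleen, against 3.32, 3.51 and 6.01, so array 1 lay within the range of the other organs and the other 3 spleen arrays above it. MS4A7, a membrane protein of macrophages, was at 8.61, 6.43, 6.81 and 7.81, against 3.41, 3.68 and 4.64. CCL23, a myeloid chemokine, was at 8.33, 10.30, 9.5 and 11.45, against 3.86, 6.65 and 9.26.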
